A study of Mus musculus with 12 samples.

Results

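The genes described here are the amino acid transporter families of the solute carrier (Slc) superfamily in mouse microglia and central nervous system macrophages with and without the TGF-beta receptor gene Tgfbr2. Members were the rows whose mouse Ensembl gene maps to a protein-coding GENCODE symbol that begins with Slc1a, Slc3a, Slc6a, Slc7a, Slc36a, Slc38a or Slc43a. The deposited table held 59 such genes among 25904, and 5 further annotated genes of these families were not analysed here. Testing required 10 or more normalized counts in 3 or more of the 12 libraries, and 26 of the 59 passed. Slc7a6os entered by its prefix, as it is named for lying on the opposite strand from Slc7a6 and is not a transporter.

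RNA was sequenced from 4 groups of 3 libraries, all of C57BL/6 mice, each library a pool of 1 to 5 animals. WT microglia came from Tgfbr2 fl/fl mice, which carry the floxed alleles and no Cre, and KO microglia from Cx3cr1 CreER/+ Tgfbr2 fl/fl mice, in which tamoxifen-activated Cre is expressed from the Cx3cr1 locus of microglia and related macrophages. The treatment was 3 daily subcutaneous injections of 5 mg tamoxifen, and 18 to 22 days later the brains and spinal cords were taken for sorting. For the macrophage groups, irradiated Cx3cr1 CreER/+ R26 DTA/+ hosts received marrow of 1 of the same genotypes, Tgfbr2 fl/fl (WT) or Cx3cr1 CreER/+ Tgfbr2 fl/fl (KO). Tamoxifen 6 weeks after transplantation then turned on diphtheria toxin in the hosts' own Cx3cr1-expressing cells, and the monocyte-derived macrophages that refilled the central nervous system were sorted 18 to 22 days later. The sources used here give neither the age of the mice nor the number of host cells left. All sorted cells were live, Ly6C-negative and CD11b-positive, but the F4/80 gate was low for WT and high for KO cells. The CreER allele and the gate therefore move with the genotype and cannot be told apart from the deletion. Irradiation, transplantation and toxin depletion of the hosts applied only to the macrophage groups. They move with the origin and cannot be told apart from it, also where the KO effects of the origins are compared.

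Amino acids cross the plasma and lysosomal membranes through carriers that differ in substrate and driving ion. Slc1 carriers take up glutamate or exchange neutral amino acids. Slc7 light chains pair with the glycoprotein heavy chains Slc3a1 and Slc3a2 to form exchangers. Slc38 proteins are sodium-coupled carriers of glutamine and other neutral amino acids, and some Slc36 proteins are coupled to protons. Slc6 proteins carry neurotransmitters, taurine, creatine and amino acids with sodium and chloride, and Slc43 proteins are facilitators. Microglia are the resident macrophages of the brain and spinal cord, where TGF-beta signalling is known to maintain their characteristic gene programme. Cells that run short of amino acids raise the translation of the transcription factor ATF4, which binds C/EBP-ATF response elements, and several Slc7, Slc1 and Slc38 genes are textbook targets of that response.

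Promoter windows running 250 bases before to 50 bases after a RefSeq transcript start (GRCm38.p6) were given for 18 of the 26 tested members, 25 windows in all. They were searched for the letters of the C/EBP-ATF response element, TGATGNAAN, on both strands. A match stood in 4 of the 25 windows (16.0%), belonging to Slc7a11, Slc1a4 and Slc7a7, against 3.95% of 32851 windows of all genes. The 2 Slc7a7 windows among them overlap and share a match, so that the 4 windows belong to 3 of the 18 members. A match is a description of letters, not a binding site. Whether the matches bear on transcript levels was not tested. The stretches with matches nearest the start are given for these 3 members because their windows held a match. Each runs from 180 bases before to 20 bases after the start, 5′ to 3′ on the gene's minus strand, with the matched letters in capitals, at chr3:50443594-50443793 for Slc7a11, chr11:20332694-20332893 for Slc1a4 and chr14:54417925-54418124 for Slc7a7.
Slc7a11: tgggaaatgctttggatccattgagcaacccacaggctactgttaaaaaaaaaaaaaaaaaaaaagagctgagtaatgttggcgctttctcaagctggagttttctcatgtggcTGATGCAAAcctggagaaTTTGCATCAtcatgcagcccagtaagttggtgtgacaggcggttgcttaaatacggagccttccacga
Slc1a4: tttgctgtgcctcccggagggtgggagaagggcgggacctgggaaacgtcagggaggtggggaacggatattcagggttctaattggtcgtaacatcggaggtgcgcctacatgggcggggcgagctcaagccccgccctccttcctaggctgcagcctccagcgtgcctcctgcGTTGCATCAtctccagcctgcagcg
Slc7a7: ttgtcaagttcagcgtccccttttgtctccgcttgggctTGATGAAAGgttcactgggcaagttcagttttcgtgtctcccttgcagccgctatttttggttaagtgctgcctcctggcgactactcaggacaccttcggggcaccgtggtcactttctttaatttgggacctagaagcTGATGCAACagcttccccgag
The Slc7a11 stretch held 1 match on each strand, that of Slc1a4 held 1 match read on the opposite strand, and that of Slc7a7 held 2 matches on the gene's strand. Among the other motifs searched in the same 25 windows on both strands, the Smad-binding letters CAGACA matched in 4% (21.0% of all windows), the Smad palindrome GTCTAGAC in none (0.213%), the PU.1 core GGAAGT in 24.0% (23.8%), the AP-1 site TGACTCA in 4% (5.20%) and the Maf or Nrf2 core TGANNNNGC in 64.0% (41.3%). A Maf match in Slc7a11 overlaps 1 of its response-element matches. The table gave no window for Slc1a5, Slc36a2, Slc38a1, Slc43a3, Slc6a6, Slc6a8, Slc7a2 and Slc7a5.

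Reads assigned to genes numbered 2615404 to 6364994 per library, so that 1 read stood for 0.718 to 1.60 normalized counts. Tgfbr2 itself (normalized count, mean ± SD, n = 3) was at 2898 ± 356 in WT and 2193 ± 100 in KO microglia, with 3303 ± 267 in WT and 2235 ± 209 in KO macrophages, lower in KO cells of both origins (limma adjusted p = 0.00515 and 0.000608); counts per gene do not show the exons that Cre removes. All 10 general macrophage markers had reads in each group, and their sum was between 51657 and 59442 in WT and between 29650 and 33179 in KO microglia. In KO microglia 5 of 10 were called lower (20.6% of all tested genes) and 2 higher (21.9%). In macrophages the sum was between 29610 and 32330 in WT and between 27665 and 31659 in KO cells, with 2 called lower (15.4% of all tested genes) and 3 higher (16.0%). The summed level of 12 microglia markers was between 86248 and 113879 in WT and between 6120 and 6761 in KO microglia, with 27417 to 29803 in WT and 7840 to 8981 in KO macrophages. The sum of 10 markers of border-associated macrophages went the other way, from 127 to 146 in WT microglia (Cd209f at 0) up to 21350 to 25713 after deletion, and in macrophages from 8235 to 10212 (WT) up to 23445 to 24333 (KO). These marker levels moved with the genotype beside every result that follows, and their part in any of them was not tested. In sorted bulk RNA, fewer cells of a type and less RNA per cell cannot be told apart. KO macrophage replicate 1 was the shallowest library and stood apart (within-group Pearson r across genes down to 0.935 in KO macrophages against 0.971 to 0.982 in the other groups), and its sum of 20 early-response genes was 36027 against 15564 and 15589 in the other KO macrophage libraries. The Y-linked Ddx3y was above 400 normalized counts in 3 of 3 KO microglia libraries and in 1 of 3 libraries of each other group. Sex, as read from this gene, thus moved in part with the genotype in microglia and with the origin in KO cells.

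Deletion of Tgfbr2 in microglia was accompanied by lower transcripts for 13 of the 26 tested members and higher transcripts for 6 (limma, Benjamini-Hochberg adjusted p under 0.05 over 12519 genes), where 20.6% of all tested genes were lower and 21.9% higher. In macrophages 7 members were lower and 5 higher, where 15.4% and 16.0% of all tested genes were. The median size of the log2 change over the tested members was 1.21 in microglia, against 0.41 over all tested genes, and 0.52 in macrophages, against 0.34. Slc1a4, Slc36a2 and Slc7a2 passed the filter only through the group in which they were highest, so these counts describe the members that passed and are no measure of the families as a whole. The plot of normalized counts by library shows the 17 members with a group mean of at least 100 and a call in at least 1 comparison.

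**Figure D1:**
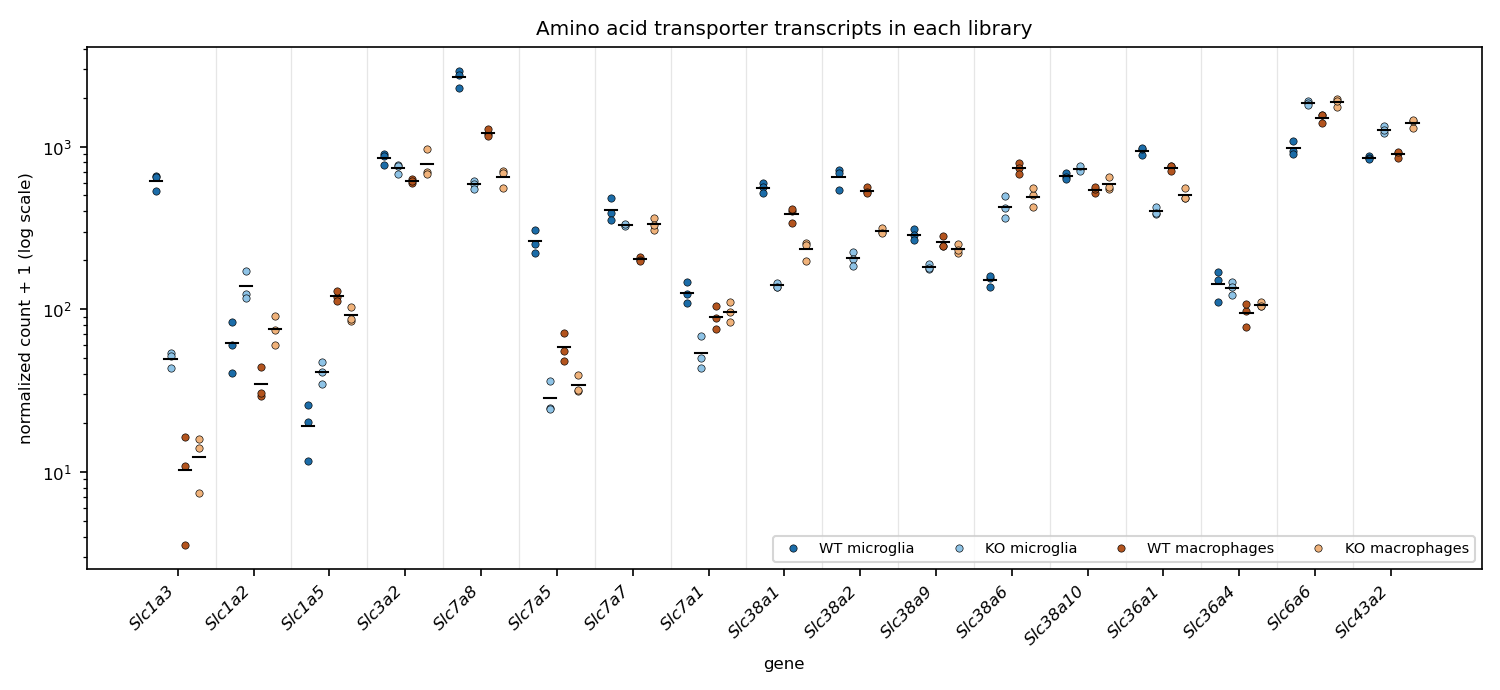
Normalized counts (plus 1, log scale) of 17 amino acid transporter genes in each of the 12 libraries; points are libraries, bars are group means. Slc1a3, Slc7a5, Slc7a8, Slc38a1 and Slc38a2 sit lower in all KO microglia libraries than in any WT microglia library, whereas Slc6a6, Slc38a6 and Slc43a2 sit higher.

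Slc1a3 encodes GLAST, the sodium-driven glutamate and aspartate carrier best known from astrocytes (chromosome 15, 8634124 to 8710764 of GRCm38, minus strand). Its normalized counts were 660, 647 and 533 in the WT microglia libraries against 42.2, 53.1 and 50.6 in KO microglia. WT macrophages had 15.5, 2.54 and 9.88, and KO macrophages 6.4, 14.8 and 12.9. WT microglia thus stood apart from every other library, KO microglia lay between them and the macrophages, and the macrophage groups overlapped. The mean in KO microglia was 12.6-fold lower than in WT microglia (log2 −3.63 ± 0.43 SE, limma adjusted p = 5.40e-06), and the KO effect differed between the origins (log2 difference 4.08 ± 0.61, adjusted p = 0.000161). WT macrophages were 66.0-fold below WT microglia (adjusted p = 2.51e-08), and KO macrophages 4.27-fold below KO microglia (adjusted p = 0.00503). In macrophages the KO and WT values were at 11.4 ± 4.42 and 9.30 ± 6.49 (SD, n = 3) and the change did not pass (adjusted p = 0.455); its sign turned without WT macrophage replicate 2, to log2 −0.19.

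Slc1a2 encodes GLT-1, the main glutamate carrier of astrocytes, and it went the other way. WT microglia had 39.7, 59.3 and 82.8 normalized counts, and KO microglia 124, 116 and 171. WT macrophages had 28.2, 43.2 and 29.6, and KO macrophages 73.6, 89.9 and 58.9. In each origin all KO libraries were above all WT libraries. The log2 changes were 1.20 ± 0.26 SE in microglia (limma adjusted p = 0.00168) and 1.12 in macrophages (adjusted p = 0.00478), and the difference between these changes did not pass (adjusted p = 0.898). Beside it, the summed level of 14 astrocyte markers was between 20.3 and 69.3 in WT and between 142 and 160 in KO microglia, with 31.9 to 43.2 in WT and 115 to 154 in KO macrophages. All 14 markers had reads in KO microglia. Gjb6 was at 0 in WT microglia and KO macrophages, Ntsr2 in WT macrophages and Agt in KO macrophages. The sum of 10 neuron markers also moved, in microglia from 16.7 to 29.6 (WT) up to 124 to 167 (KO) and in macrophages from 37.3 to 69.9 (WT) up to 99.8 to 189 (KO). The part of astrocyte or neuron RNA in the Slc1a2 values was not tested. Slc1a2 was lower in macrophages than in microglia of either genotype (adjusted p = 0.0272 in WT and 0.0475 in KO), calls that were lost in 7 and 12 of 23 alternative analyses, including the removal of single libraries of either origin.

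**Figure D2:**
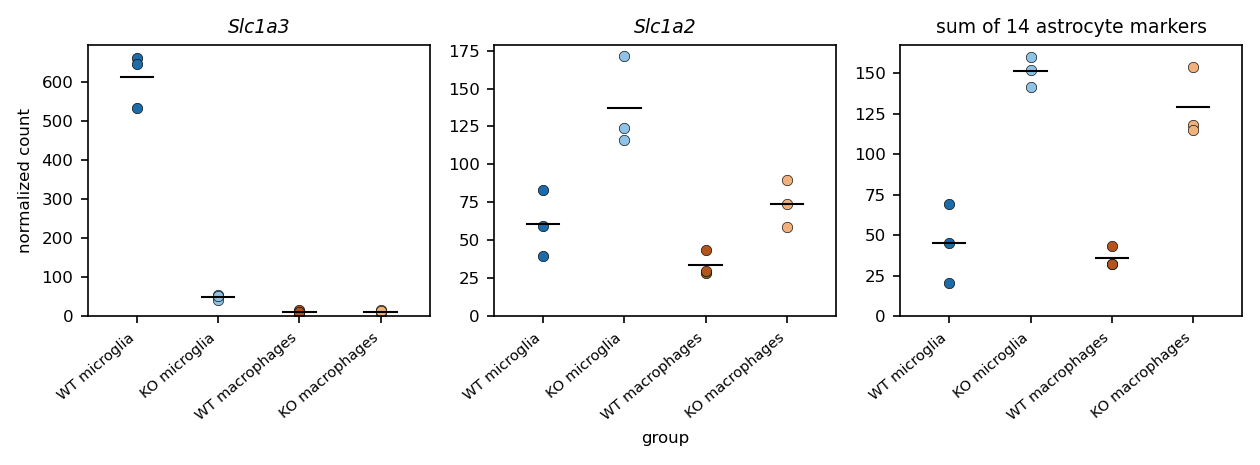
Normalized counts of the glutamate carriers Slc1a3 and Slc1a2 and the summed normalized counts of 14 astrocyte markers in each library, by group; points are libraries and bars are group means. Slc1a3 is at 533 to 660 in WT microglia and at most 53.1 elsewhere, while Slc1a2 and the marker sum are both higher in KO than in WT libraries of each origin.

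The neutral amino acid exchangers of the Slc1 family differed in direction in microglia. Slc1a4 encodes ASCT1, an exchanger of alanine, serine and cysteine, and had means (± SD, n = 3) of 64.9 ± 17.7 normalized counts in WT and 6.28 ± 1.60 in KO microglia, with 10.6 ± 1.90 in WT and 6.85 ± 1.78 in KO macrophages. Slc1a4 passed the filter only through WT microglia, so its KO change there, log2 −3.16, is given as a description with no test. Slc1a5 encodes ASCT2, a glutamine exchanger. WT microglia had 10.6, 19.3 and 24.8 and KO microglia 46.2, 40.3 and 33.8 normalized counts. WT macrophages had 118, 128 and 112, and KO macrophages 102, 83.8 and 85.5. Slc1a5 was thus highest in macrophages of both genotypes and rose in KO microglia without reaching any macrophage library. Its rise was 1.16 on the log2 scale (limma adjusted p = 0.00156), and the KO effects differed by −1.56 between the origins (adjusted p = 0.00471). The macrophage change of −0.40 did not pass (adjusted p = 0.247), though all KO libraries were below all WT libraries. It was called in 1 of 23 alternatives, limma with voom on recovered reads (adjusted p = 0.0432).

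Slc3a2 encodes CD98hc, the heavy chain that brings the light chains to the cell surface. WT microglia had 900, 868 and 764 normalized counts and KO microglia 682, 768 and 753. WT macrophages had 632, 594 and 614, and KO macrophages 960, 698 and 679. WT macrophages were below every other library, and below WT microglia by log2 −0.46 (limma adjusted p = 0.00550), a call made in all 23 alternative analyses. The KO and WT microglia libraries overlapped (adjusted p = 0.188). In macrophages the KO libraries were higher (log2 0.33, adjusted p = 0.0428), but the highest of them was replicate 1, and without it the change was 0.17 (adjusted p = 0.165); the call was lost in 13 of 23 alternative analyses. The other heavy chain, Slc3a1, had 16 reads in all libraries together and was not tested.

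All 5 tested light chains were called lower in KO microglia, where 20.6% of all tested genes were, and the calls of Slc7a7 and Slc7a11 were lost in some alternatives. The heavy chain Slc3a2 was at log2 −0.20 there and did not pass, near the −0.31 of Slc7a7. Light and heavy chains were not compared by a test. Slc7a8 encodes LAT2, an exchanger of neutral amino acids, and lies on chromosome 14, 54722209 to 54781946 of GRCm38, on the minus strand. WT microglia had 2924, 2770 and 2283 normalized counts and KO microglia 617, 589 and 547. WT macrophages had 1192, 1168 and 1284, and KO macrophages 555, 709 and 691. WT microglia were thus above WT macrophages, which were above both KO groups, and the KO groups overlapped (adjusted p = 0.447 between them). The change was log2 −2.18 ± 0.11 SE in microglia (limma adjusted p = 2.23e-10) and −0.90 in macrophages (adjusted p = 1.36e-05), with a difference of 1.27 ± 0.15 (adjusted p = 1.86e-05).

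Slc7a5 encodes LAT1, which carries leucine and other large neutral amino acids. Its values were 308, 251.2 and 220 in WT microglia against 23.6, 35.4 and 23.3 in KO microglia, and 70.1, 47.0 and 54.3 in WT and 38.4, 30.5 and 30.9 in KO macrophages. The microglia mean was 9.47-fold lower in KO cells (log2 −3.21 ± 0.22 SE, limma adjusted p = 8.03e-09), to a level that overlapped the KO macrophages. In macrophages the change was −0.75 (adjusted p = 0.0158), −0.60 without WT macrophage replicate 1 (adjusted p = 0.0828), and the KO effects differed by 2.46 (adjusted p = 2.69e-05). Slc7a6, the light chain y+LAT2, which exchanges cationic for neutral amino acids, was at 92.0 ± 14.7 and 27.8 ± 3.44 normalized counts in WT and KO microglia and at 78.5 ± 7.90 and 32.7 ± 6.17 in WT and KO macrophages. It fell in both, by 1.69 (adjusted p = 6.09e-06) and 1.25 (adjusted p = 0.000263) on the log2 scale, and the difference did not pass (adjusted p = 0.290). Slc7a6os, the neighbour on the other strand, was between 111 and 161 in all 12 libraries and passed in no comparison.

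Slc7a7 encodes y+LAT1, the other exchanger of cationic for neutral amino acids, and changed in opposite directions in the origins. The values were 480, 391.7 and 352 in WT microglia against 326, 322 and 332 in KO microglia, and 209, 201 and 197 in WT and 307, 363 and 329 in KO macrophages. WT macrophages were the lowest group, and the KO groups overlapped. The fall in microglia was 0.31 on the log2 scale (limma adjusted p = 0.0335), a call lost in 8 of 23 alternatives, including the removal of any KO microglia library or of WT microglia replicate 1 or 2 and the addition of Ddx3y as a covariate (adjusted p = 0.115). The rise in macrophages was 0.71 (adjusted p = 0.000147), and the KO effects differed by 1.02 ± 0.15 (adjusted p = 0.000171). Exons of Oxa1l on the opposite strand cover 7.0% of the Slc7a7 exon bases, and Oxa1l passed in neither KO comparison (adjusted p = 0.111 and 0.850). Slc7a11 encodes xCT, the cystine/glutamate exchanger, and was low: 14.2 ± 6.28 normalized counts in WT and 4.76 ± 2.44 in KO microglia, with 14.3 ± 8.34 in WT and 11.6 ± 6.70 in KO macrophages. Its fall in KO microglia (log2 −1.41, adjusted p = 0.0437) was lost in 7 alternatives, among them leaving out KO microglia replicate 1 or 2, WT microglia replicate 1 or 3, or WT macrophage replicate 1.

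Of the members that carry cationic amino acids without a heavy chain, Slc7a1 and Slc7a2 were tested. Slc7a1 encodes CAT1, the widely expressed arginine and lysine carrier. It had 145, 122 and 108 normalized counts in WT microglia against 42.2, 67.8 and 49.0 in KO microglia, and 87.4, 103 and 74.9 in WT and 94.4, 82.9 and 110 in KO macrophages. KO microglia were below every other library, and the macrophage genotypes overlapped. The change was −1.24 in microglia (limma adjusted p = 9.50e-05) and 0.12 in macrophages (adjusted p = 0.690), with a difference of 1.36 (adjusted p = 0.00206). Slc7a2, the carrier CAT2, was higher in macrophages: 15.4 ± 7.08 in WT and 32.5 ± 23.5 in KO macrophages against 1.28 ± 1.12 and 2.05 ± 1.12 in WT and KO microglia. It passed the filter only through KO macrophages, so these levels are a description with no test, and its spread among KO macrophages was 8.0 to 55.0.

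Slc6a6 encodes TauT, the sodium- and chloride-coupled taurine carrier. WT microglia had 942, 898 and 1077 normalized counts and KO microglia 1902, 1854 and 1812. WT macrophages had 1556, 1387 and 1570, and KO macrophages 1740, 1958 and 1914. Both KO groups stood above their WT groups and overlapped each other (adjusted p = 0.964), while WT macrophages lay above WT microglia. The rise was 0.94 ± 0.08 SE on the log2 scale in microglia (limma adjusted p = 2.47e-07) and 0.31 in macrophages (adjusted p = 0.0107), with a difference of −0.62 (adjusted p = 0.00132); without WT macrophage replicate 2 the macrophage change was 0.26 (adjusted p = 0.0554). The X-linked creatine carrier Slc6a8 was at 29.2 ± 4.82 in WT and 15.3 ± 1.21 in KO microglia, with 11.1 ± 3.56 in WT and 16.9 ± 8.50 in KO macrophages. It was lower in WT macrophages than in WT microglia (adjusted p = 0.00903) and passed in neither KO comparison (adjusted p = 0.0672 and 0.341), though the microglia change passed in 6 of 22 alternatives, among them without KO macrophage replicate 1 or 3.

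Among the Slc36 carriers, the common Slc36a1 fell in KO microglia and Slc36a4 did not pass. The rare Slc36a2 passed the filter only through WT microglia and is described by its reads. Slc36a1 encodes PAT1, a carrier of small amino acids at the lysosomal and plasma membranes. It had 891, 959 and 982 normalized counts in WT microglia against 425, 383 and 391 in KO microglia, and 756, 756 and 704 in WT and 552, 479 and 485 in KO macrophages. The groups did not overlap, in the order WT microglia, WT macrophages, KO macrophages, KO microglia. The changes were −1.24 ± 0.08 SE in microglia (limma adjusted p = 6.94e-09) and −0.55 in macrophages (adjusted p = 0.000126), with a difference of 0.69 (adjusted p = 0.000451). Slc36a4, PAT4, was at 168, 149.4 and 110 in WT and 122, 146 and 137 in KO microglia, with 76.5, 96.6 and 106 in WT and 104, 110 and 103 in KO macrophages. Its genotypes overlapped in both origins (adjusted p = 0.802 and 0.396), and it was lower in WT macrophages than in WT microglia (log2 −0.60, adjusted p = 0.00957), a call lost without WT macrophage replicate 1 or WT microglia replicate 1. Slc36a2, PAT2, a carrier of glycine and proline, had 53 reads in the WT microglia libraries together, 0 in KO microglia and 1 in each macrophage group. WT microglia were thus at least 20.1-fold higher than KO microglia (against a floor of 3 reads over the group), and the ratio to WT macrophages was 57.1 (exact 95% interval 9.82 to 2298, counting error only).

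**Figure D3:**
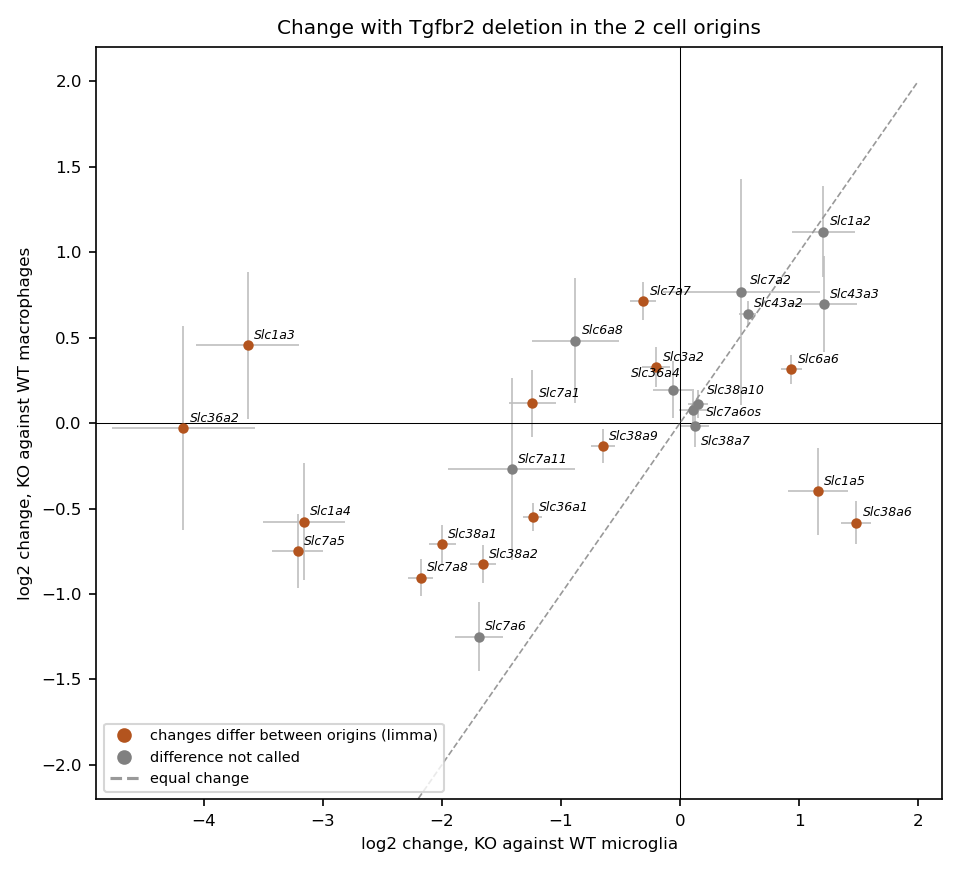
Log2 change of each of the 26 tested members in KO against WT microglia (horizontal axis) and in KO against WT macrophages (vertical axis), with standard errors; orange points are the 15 members whose changes differ between the origins by limma's interaction test, and the dashed line marks equal changes. Slc1a3 lies at −3.63 in microglia and 0.45 in macrophages, Slc38a6 at 1.48 and −0.58, and Slc43a2 near the line at 0.57 and 0.64. Slc1a4 and Slc36a2, both orange, passed the filter only through WT microglia and are a description with no test.

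Among the sodium-coupled neutral amino acid carriers, the glutamine and alanine carriers Slc38a1 (SNAT1) and Slc38a2 (SNAT2) fell together in both origins. Slc38a1 had 596, 560 and 520 normalized counts in WT microglia against 137, 145 and 136 in KO microglia, and 398, 336 and 410 in WT and 197, 255 and 248 in KO macrophages. Slc38a2, whose transcript is induced by amino acid shortage in many cells, had 716, 539 and 690 in WT and 225, 204 and 184 in KO microglia, and 563, 524 and 517 in WT and 296, 314 and 294 in KO macrophages. For both genes the KO microglia libraries were the lowest of all. The Slc38a1 changes were −2.00 ± 0.11 SE in microglia (limma adjusted p = 1.12e-09) and −0.71 in macrophages (adjusted p = 0.000225), with a difference of 1.29 (adjusted p = 2.77e-05). Those of Slc38a2 were −1.66 ± 0.11 (adjusted p = 6.89e-09) and −0.82 (adjusted p = 4.31e-05), with a difference of 0.83 (adjusted p = 0.00104).

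Slc38a6, a less studied member of this family, was called in opposite directions in the origins, with the larger gap of the 2 members of which this holds. Its values were 155, 160 and 137 in WT microglia against 494, 419 and 360 in KO microglia, and 792, 732 and 677 in WT and 423, 499 and 553 in KO macrophages. The KO groups overlapped at a level between the WT groups. It rose by 1.48 ± 0.13 SE in KO microglia (limma adjusted p = 1.13e-07) and fell by 0.58 in KO macrophages (adjusted p = 0.00248), a difference of −2.06 ± 0.18 (adjusted p = 6.69e-07). Its level in WT macrophages was 4.87-fold that in WT microglia (adjusted p = 1.70e-09), and in KO cells the difference between origins did not pass (adjusted p = 0.338).

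Slc38a9 encodes a lysosomal arginine sensor that signals to mTORC1. It had 308, 283 and 264 normalized counts in WT and 190, 176 and 179 in KO microglia, and 245, 244 and 282 in WT and 250, 221 and 231 in KO macrophages. KO microglia were below every other library. The microglia change was −0.65 (limma adjusted p = 7.80e-05), the macrophage change −0.13 (adjusted p = 0.331) and the difference 0.51 (adjusted p = 0.0150), which was not called with Ddx3y as a covariate. Slc38a10 had 689, 647 and 634 in WT and 722, 706 and 762 in KO microglia, and 520, 546 and 560 in WT and 650, 546 and 566 in KO macrophages. It passed in neither KO comparison (adjusted p = 0.154 and 0.323) and was lower in macrophages of both genotypes by 0.28 and 0.32 on the log2 scale (adjusted p = 0.0146 and 0.0206), calls lost in 3 and 8 alternatives; the removal of WT macrophage or WT microglia replicate 1 ended the first, and that of KO macrophage replicate 2 or 3 or KO microglia replicate 1 or 3 the second. Slc38a7, a lysosomal glutamine carrier, was between 234.1 and 315 in all libraries and passed in no comparison.

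Slc43a2 encodes LAT4, a facilitator of branched-chain amino acids, methionine and phenylalanine. WT microglia had 872, 850 and 841 normalized counts and KO microglia 1334, 1218 and 1255. WT macrophages had 911, 844 and 926, and KO macrophages 1301, 1428 and 1452. The genotypes did not overlap, and the origins overlapped within each genotype. The rise was 0.57 ± 0.07 SE in microglia (limma adjusted p = 1.25e-05) and 0.64 in macrophages (adjusted p = 9.30e-06), and the difference of 0.07 ± 0.10 did not pass (adjusted p = 0.661). An antisense gene not in the table covers 9.18% of its exon bases; the library kit keeps strand, and the sources used here do not say whether counting used it. Slc43a3, known as a purine base carrier, was at 11.5 ± 0.924 in WT and 28.5 ± 6.84 in KO microglia (adjusted p = 0.00272), with 16.4 ± 2.80 in WT and 27.1 ± 4.49 in KO macrophages (adjusted p = 0.0745).

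The 33 untested members stayed at or below 16.7 normalized counts in every library, and 8 of them had at most 3 reads in all libraries together. They included all 6 listed carriers of GABA and glycine, the noradrenaline carrier Slc6a2 and all 9 listed amino acid carriers of the Slc6 family. The glutamate carriers Slc1a1, Slc1a6 and Slc1a7 had 15, 2 and 2 reads in all. Without the filter limma called 4 of the 33 in KO against WT microglia and 1 between the WT origins. The share of all genes called in that fit is not given here, so these counts cannot be set against a background. The neutral amino acid facilitator Slc43a1 had 24 reads in the WT microglia libraries together and 4 in KO microglia, with 1 and 2 in WT and KO macrophages, and was called lower in KO microglia and in WT macrophages (adjusted p = 0.0124 and 0.00368 in that fit). Slc6a17, Slc6a7 and Slc6a20b were called higher in KO microglia, with 34, 8 and 7 reads against 6, 0 and 0 in WT microglia (adjusted p = 0.0204, 0.0152 and 0.0212). Slc6a17 and the proline carrier Slc6a7 are best known from neurons, whose marker sum was higher in the same libraries, and the part of neuron RNA in their values was not tested. With so few reads the size of these changes depends on the pseudocount.

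Per kilobase of annotated exon, the order of the members changed with genotype. Slc7a8 was the highest in WT microglia (531 ± 66.8 normalized counts per kilobase) and in WT macrophages (243 ± 12.2), above all libraries of the next member. In KO microglia Slc6a6 (219 ± 5.35) and Slc3a2 (208 ± 13.1) led, with overlapping libraries, and in KO macrophages the same 2 genes were at 221 ± 13.6 and 221 ± 44.5. Slc7a8 ranked 4 in both KO groups, at 116.8 ± 6.97 and 130 ± 16.8 per kilobase. Slc7a5, at 70.1 ± 11.9 per kilobase in WT microglia, was at 7.40 in KO microglia and 8.97 in KO macrophages.

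Of the 26 tested members, 9 (34.6%) were called in the same direction in KO microglia and KO macrophages, where 17.9% of all tested genes were. These 9 were 47.4% of the 19 members called in microglia and 75.0% of the 12 called in macrophages, against 42.2% and 57.1% of all genes called there. Slc1a2, Slc43a2 and Slc6a6 were higher in both origins, and Slc36a1, Slc38a1, Slc38a2, Slc7a5, Slc7a6 and Slc7a8 lower in both. Slc38a6 and Slc7a7 were called in opposite directions. The KO effect itself differed between the origins for 15 of the 26. It was more negative in microglia for 12 (13% of all tested genes) and more positive in microglia for 3 (12.9%), namely Slc1a5, Slc38a6 and Slc6a6. Slc1a4 and Slc36a2 are among the 12, but they passed the filter only through WT microglia and are a description with no test.

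WT macrophages differed from WT microglia in 17 of the tested members, 13 lower (20.2% of all tested genes) and 4 higher (19.2%). KO macrophages differed from KO microglia in 10, of which 3 were lower (5.05%) and 7 higher (5.45%). Slc1a5 and Slc7a2 were higher and Slc1a2, Slc1a3 and Slc38a10 lower in macrophages of both genotypes, 19.2% of the tested members, where 6.06% of all tested genes were called in the same direction in both. They were 29.4% of the members called in WT cells and 50% of those called in KO cells, against 15.4% and 57.8% of all genes called there. Slc7a2 stands in the counts of both genotypes, and Slc1a4 and Slc36a2 stand among the 13 lower in WT macrophages. Each passed the filter only through its highest group, so their calls are a description with no test. Slc36a1 and Slc38a1 were lower in WT macrophages than in WT microglia and higher in KO macrophages than in KO microglia (limma adjusted p = 0.00312 and 0.0148 for Slc36a1, 0.00117 and 0.000404 for Slc38a1). Both Slc36a1 calls were lost when libraries were scaled by their totals. The one in KO cells was lost in 6 of 23 alternatives, among them Ddx3y as a covariate and leaving out KO microglia replicate 2 or 3. Slc7a1, Slc38a2 and Slc38a9 were higher in KO macrophages than in KO microglia and were not called between WT cells. Between WT cells Slc7a1 was at log2 −0.50 (limma adjusted p = 0.0562) and was called in 9 of 23 alternatives. Slc38a2 was at −0.27 there (adjusted p = 0.0671) and was called in 3. The Slc7a1 call between KO cells was lost without KO microglia replicate 1 (adjusted p = 0.0547) and with Ddx3y as a covariate. That of Slc38a9 was lost in 9 alternatives, among them leaving out KO macrophage replicate 1 or 3 or any KO microglia library. The median size of the log2 difference between origins was 0.58 in WT cells (0.39 over all tested genes) and 0.27 in KO cells (0.22).

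**Figure D4:**
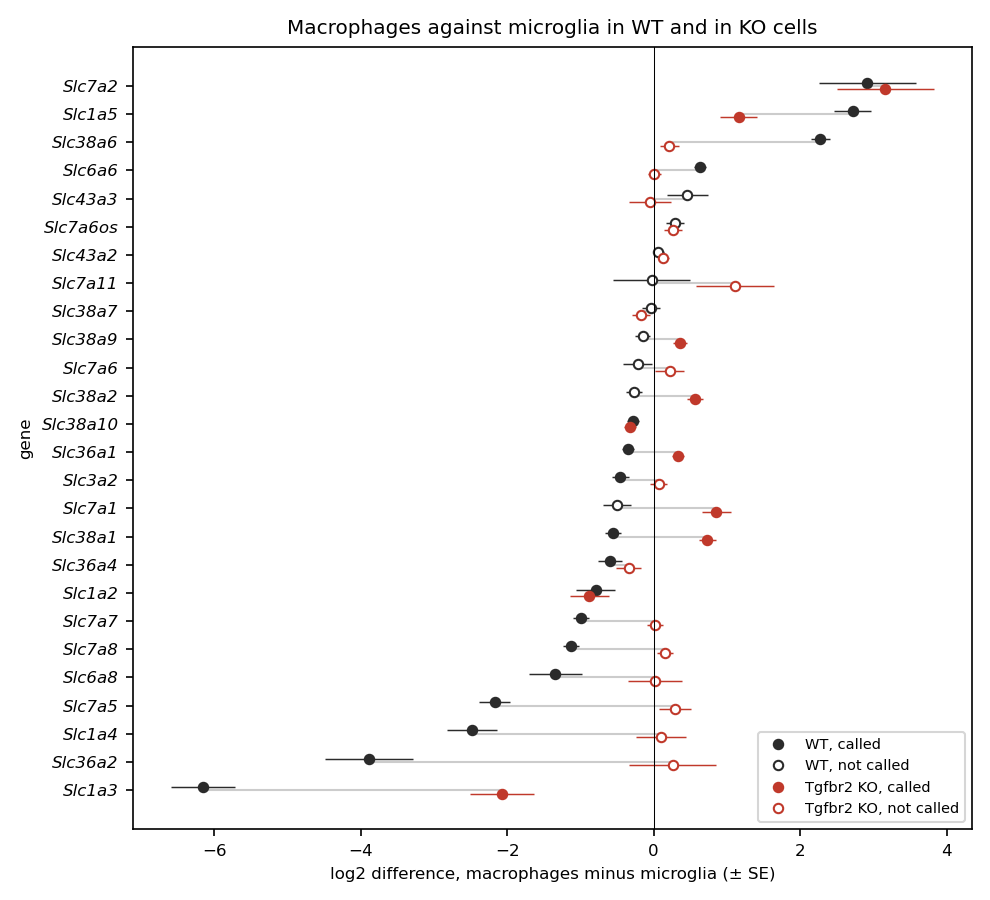
Log2 difference between macrophages and microglia for each of the 26 tested members, in WT cells (black) and in Tgfbr2 KO cells (red), with standard errors; filled points passed limma's test at adjusted p under 0.05. Slc1a3 moves from −6.15 in WT to −2.07 in KO cells, and Slc7a8 and Slc7a5, called in WT cells, are not called in KO cells. Slc1a4, Slc36a2 and Slc7a2 each passed the filter only through their highest group and are a description with no test.

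Genes that handle amino acids by other means were read from 7 lists that hold no member. Of 32 tested targets of the ATF4 amino acid response, 17 fell in KO microglia (53.1%, against 20.6% of all tested genes). In the same comparison 1 rose (3.125%, against 21.9%). The 1 was 2 without KO macrophage or KO microglia replicate 1, and 3 without WT microglia replicate 3. The list median was log2 −0.42, against −0.01 over all tested genes. In KO macrophages 2 fell (6.25%, against 15.4% of all tested genes) and 3 rose (9.375%, against 16.0%). The 3 were 6 without KO macrophage replicate 3, and the list median was 0.03. By limma, the KO effect was called more negative in microglia than in macrophages for 14 of the 32 (43.75%, against 13% of all tested genes). It was called more positive in microglia for 0 (against 12.9%). The 0 was 2 at an unadjusted p under 0.05, 1 with voom and 2 without WT microglia replicate 3. Among the aminoacyl-tRNA synthetases, which charge tRNAs for translation, Aars went from 596 ± 114 to 254 ± 20.1 normalized counts in microglia (limma adjusted p = 2.24e-06) and Yars from 256 ± 33.2 to 108 ± 19.8 (adjusted p = 2.99e-06). In WT and KO macrophages Aars was at 217.5 ± 28.5 and 230 ± 10.8, and Yars at 132 ± 9.69 and 132 ± 7.61. Aldh18a1, the enzyme that starts proline synthesis from glutamate, fell from 111 ± 19.9 to 24.9 ± 5.57 in microglia (adjusted p = 1.76e-06) and was at 53.9 ± 10.7 and 48.9 ± 8.07 in WT and KO macrophages. Ddit4, an inhibitor of mTORC1 signalling, was the target that rose in KO microglia, from 43.7 ± 30.4 to 137 ± 24.4 (adjusted p = 0.00215), and in macrophages it rose from 25.6 ± 14.3 to 193 ± 58.6 (adjusted p = 6.61e-05). Atf4 itself was at 672 ± 87.2 and 492 ± 11.6 in WT and KO microglia and did not pass (adjusted p = 0.0575). Phgdh, the first enzyme of serine synthesis, is below the level set for naming and was picked after its values were seen: it had 166 reads in WT microglia, 0 in KO microglia and 1 in WT macrophages, at least 63.1-fold lower in KO than in WT microglia against a floor of 3 reads over the group.

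**Figure D5:**
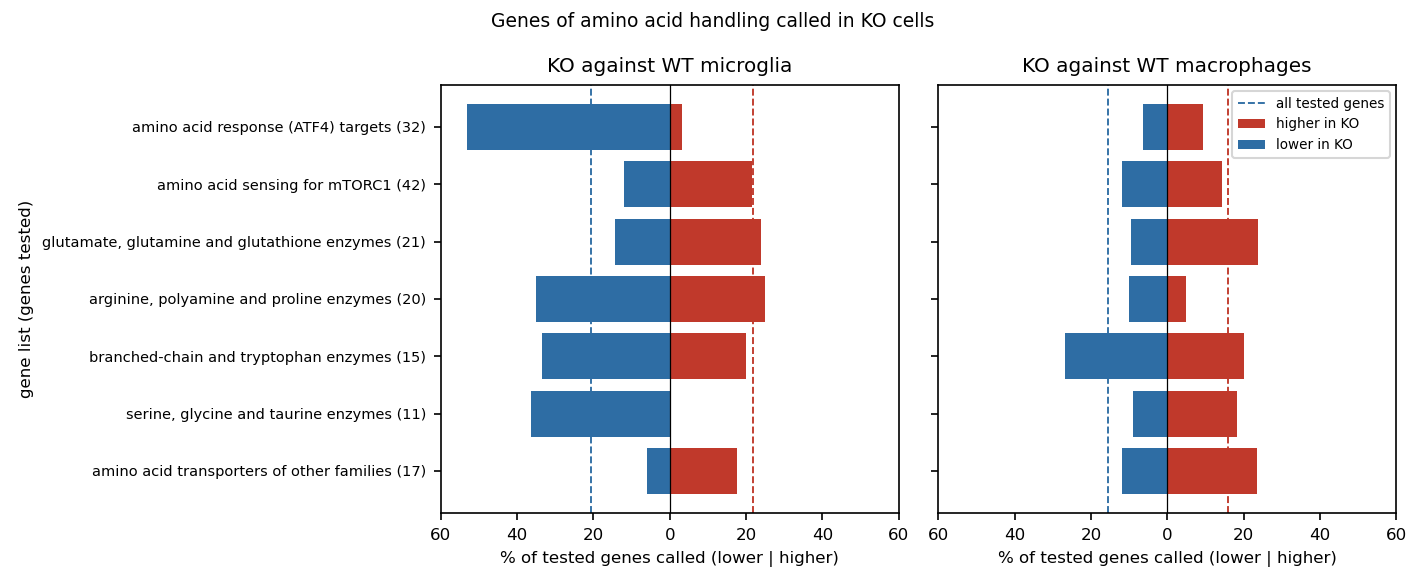
Share of the tested genes of 7 lists called lower (blue, left) or higher (red, right) in KO against WT microglia and in KO against WT macrophages, with the number tested in parentheses; dashed lines are the shares over all tested genes. The ATF4 target list has 53.1% lower in KO microglia and 6.25% lower in KO macrophages.

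Of 42 tested genes of amino acid sensing for mTORC1, the kinase complex that couples nutrient supply to growth, 9 rose and 5 fell in KO microglia and 6 rose and 5 fell in KO macrophages, shares at or below those of all tested genes; the 5 that fell in microglia were 3 without KO microglia replicate 2 or 3 or WT microglia replicate 1, and the 5 in macrophages were 8 with scaling by library totals. Rptor, the scaffold subunit of mTORC1, fell from 1675 ± 158 to 781 ± 61.1 in microglia (limma adjusted p = 1.37e-06) and from 1126 ± 39.7 to 610 ± 109 in macrophages (adjusted p = 2.98e-05). The Rag GTPase gene Rragc rose from 294 ± 12.7 to 533 ± 36.9 in microglia (adjusted p = 3.72e-06) and from 329 ± 6.12 to 483 ± 67.9 in macrophages (adjusted p = 0.000678). Of 21 tested enzymes of glutamate, glutamine and glutathione, 5 rose (23.8%, against 21.9% of all tested genes) and 3 fell (14.3%, against 20.6%) in KO microglia, and 5 rose (against 16.0% of all) and 2 fell (9.52%, against 15.4%) in KO macrophages. Without KO macrophage replicate 1, the 5 higher in microglia were 8. Gclc, the catalytic subunit of the rate-limiting enzyme of glutathione synthesis, fell in both, from 269 ± 16.9 to 62.7 ± 7.65 in microglia (adjusted p = 2.05e-07) and from 166 ± 12.3 to 74.1 ± 21.4 in macrophages (adjusted p = 0.000174). Glutamine synthetase, Glul, fell from 2869 ± 232 to 1706 ± 106 in microglia (adjusted p = 4.57e-05) and rose from 819 ± 66.2 to 1186 ± 201 in macrophages (adjusted p = 0.00201), a difference of 1.27 on the log2 scale (adjusted p = 2.20e-05).

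The list of arginine, polyamine and proline enzymes had 5 of 20 tested genes higher (25%, against 21.9% of all tested genes) and 7 lower (35%, against 20.6%) in KO microglia, and 1 higher (5%, against 16.0%) and 2 lower (10%, against 15.4%) in KO macrophages. The 1 higher in macrophages was 2 without KO microglia replicate 2 and 3 with no variance trend. Gatm, which makes the creatine precursor from arginine and glycine, rose from 299 ± 15.6 to 541 ± 26.3 in microglia (limma adjusted p = 5.70e-07) and fell from 687 ± 16.9 to 487 ± 38.6 in macrophages (adjusted p = 0.000317), a crossing like that of Slc38a6. Of 15 tested branched-chain and tryptophan enzymes, 3 were higher (20%, against 21.9% of all tested genes) and 5 lower (33.3%, against 20.6%) in KO microglia. In KO macrophages 3 were higher (20%, against 16.0%) and 4 lower (26.7%, against 15.4%). The 5 lower in microglia were 3 without KO microglia replicate 1 or 3 or WT microglia replicate 2 or 3. Kynureninase, Kynu, fell in macrophages from 111 ± 14.8 to 20.6 ± 4.57 (adjusted p = 0.00230) and in microglia, where it was low, from 11.0 ± 7.39 to 0.655 ± 1.14 (adjusted p = 0.000298). Of 11 tested serine, glycine and taurine enzymes, 4 were lower (36.4%, against 20.6% of all tested genes) and 0 higher (against 21.9%) in KO microglia. The count was 0 higher also at an unadjusted p under 0.05 and with voom, both in limma. The 4 lower were 1 with a filter at 50 normalized counts. In KO macrophages 1 was lower (9.09%, against 15.4%) and 2 higher (18.2%, against 16.0%). The 2 were 0 without KO macrophage replicate 1 or 2, and 1 without KO microglia replicate 3 or any WT macrophage library. Csad, an enzyme of taurine synthesis, fell from 238 ± 15.4 to 133.1 ± 33.6 in microglia (adjusted p = 0.00131) and from 166 ± 19.5 to 101 ± 22.8 in macrophages (adjusted p = 0.00717), where the taurine carrier Slc6a6 rose. Of 17 tested amino acid transporters of other families, 3 rose (17.6%, against 21.9% of all tested genes) and 1 fell (5.88%, against 20.6%) in KO microglia. Without WT microglia replicate 1, 0 fell. In KO macrophages 4 rose (23.5%, against 16.0%) and 2 fell (11.8%, against 15.4%). The 4 were 2 with scaling by library totals. The 2 that fell were 1 without KO macrophage replicate 1 or 3 or WT macrophage replicate 1 or 2. The aromatic amino acid carrier Slc16a10 rose in both, from 94.0 ± 16.1 to 163 ± 16.6 and from 141.2 ± 6.01 to 203 ± 14 (adjusted p = 0.000175 and 0.00841).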

How the data were processed

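Sorted microglia and macrophages were sequenced in 12 libraries, 3 per group, made with a stranded total RNA kit, per the labels' protocols. The deposited values were log2 of the normalized gene count plus a pseudocount of 1, and the submitters' processing notes name bcl2fastq, CASAVA, STAR and GRCm38. The sources used here give no versions, counter, annotation, use of strand or normalizer. With the log2 scale undone, 100% of 310848 values lay within 0.01 reads of a whole multiple of their library's own step, so reads per library could be recovered, and intervals and floors cover counting error only. Gene symbols and exon lengths came from GENCODE vM21 and were matched for 25730 of 25904 identifiers. Groups came from sample titles and replicate numbers from accession order.

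All 12 libraries entered 1 limma 3.58.1 fit of 4 group means (R 4.3.3; empirical Bayes with a variance trend, 8 residual degrees of freedom) on the 12519 genes that reached 10 normalized counts in 3 or more libraries, with Benjamini-Hochberg adjustment over them and a threshold of 0.05. Within each origin KO was set against WT, within each genotype the origins were compared, and the KO effects of the origins were contrasted; those between which groups are shared use the same libraries. Fold changes are on the log2(value + 1) scale, which understates changes of low genes; folds quoted in the text are ratios of group means. The fit was tested on simulated data. Values by library were given for members with a group mean of at least 100 and a call, plus Slc1a3, and list genes were named from the 4 largest called changes with such a mean. The members and lists were chosen with earlier results of these data known. Alternatives were other pseudocounts, filters, scalings and variance models, voom on recovered reads, Ddx3y as a covariate and leaving out each library. Libraries are separate pools of mice. Promoter windows were taken from RefSeq.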

Additional observations from a re-analysis of the deposited data

Results flagged for a closer look

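The change with Tgfbr2 deletion differed between macrophages and microglia by limma's interaction test for 15 members, given here as the log2 change in macrophages minus that in microglia. It was positive, the change being more negative in microglia, for Slc36a2 (4.14), Slc1a3 (4.08), Slc1a4 (2.58), Slc7a5 (2.46), Slc7a1 (1.36), Slc38a1 (1.29), Slc7a8 (1.27), Slc7a7 (1.02), Slc38a2 (0.83), Slc36a1 (0.69), Slc3a2 (0.53) and Slc38a9 (0.51). It was negative for Slc38a6 (−2.06), Slc1a5 (−1.56) and Slc6a6 (−0.62). Slc36a2 and Slc1a4 passed the filter only through WT microglia, so their values here are a description with no test. Both values rest on low counts outside WT microglia, and that of Slc36a2 depends on the pseudocount because KO microglia had 0 reads. Slc3a2 was lost in 9 of 22 alternatives and Slc38a9 with Ddx3y as a covariate.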

How the results depend on the processing

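Of 73 member comparisons called by limma, 57 were called in each of the alternatives run on them, 16 were lost in some and 0 changed sign. The 73 and the 57 called throughout include the calls of Slc1a4, Slc36a2 and Slc7a2. Those members passed the filter only through their highest group, so their calls are a description with no test. Of 57 comparisons not called, 8 were called in some alternative. Members higher in KO macrophages numbered 5, and 3 to 5 when single libraries were left out (3 without WT macrophage replicate 2). Between KO origins, the 7 higher became 4 with Ddx3y as a covariate, and the 3 lower became 1 with scaling by library totals and with no variance trend, and 1 to 3 when single libraries were left out (1 without KO macrophage replicate 3 or KO microglia replicate 1 or 3). The ATF4 targets lower in KO microglia numbered 13 to 18 over all alternatives, and the 14 with a more negative change in microglia became 9 with the Ddx3y covariate. Values that changed sign were all uncalled. With the Ddx3y covariate the log2 value was 0.24 for the Slc1a2 difference of KO effects, and −0.040 for Slc3a2 and −0.011 for Slc7a7 between KO origins. Leaving out single libraries gave −0.34 to 0.18 for the Slc1a2 difference of KO effects, 0.92 to −0.19 for Slc1a3 in macrophages, −0.24 to 0.068 for Slc36a4 in microglia and −0.12 to 0.0096 for the Slc38a10 difference. Between KO origins it gave −0.090 to 0.16 for Slc3a2, −0.024 to 0.061 for Slc6a6 and −0.040 to 0.080 for Slc7a7. The cause of these shifts was not tested. Scaling by totals moved the median change of all genes by −0.07 to 0.07. No paired analysis was possible because the labels give no replicate numbers. Without the filter, 4 of the 33 untested members were called in KO against WT microglia, a count given with no share over all genes. At 0.718 to 1.60 normalized counts per read, few reads limit their precision.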
